A study of Mus musculus with 6 samples.

Results

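The vacuolar proton pump and the lysosome were followed in the stria vascularis of mice with and without pendrin, through 43 genes of the 45037 probe sets that are not controls on the array. The genes had been listed by name, 19 as subunits of the pump and 24 as lysosomal proteins, and every probe set whose platform symbol was exactly one of these names was taken. A probe set is a group of short probes for one transcript. This gave 100 probe sets for 42 genes, since Atp6v0c, the proteolipid of the pump's membrane ring, had no probe set of that symbol. Of these, 89 probe sets for 40 genes passed a filter on dim signals, and the other 11 did not. Atp6v0d2 and Atp6v1b1 were represented only by probe sets under the filter.

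RNA came from the stria vascularis, a capillary-rich epithelium on the outer wall of the cochlea that pumps potassium into the endolymph, at postnatal day 10. There were 3 arrays of mice heterozygous for Slc26a4 (replicates 1, 3 and 5) and 3 of Slc26a4 knockout mice (replicates 2, 4 and 6). Slc26a4 codes for pendrin, which exchanges anions such as bicarbonate and iodide, and the comparison asked how strial expression differed before hearing starts. The controls were heterozygous, not wild type. Strain, litter and the number of animals per array are not given in the sources used here, so each p-value reflects only how far these arrays scatter, which may be technical.

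The vacuolar ATPase is a rotary pump that uses ATP to move protons into lysosomes, endosomes and secretory vesicles, and in some cells across the plasma membrane. Its soluble V1 sector splits ATP and turns the membrane-bound V0 sector, through which protons pass. The acid it makes activates the hydrolases of the lysosome, where proteins, lipids and sugars are broken down, and many of the genes are under the transcription factor TFEB and its relatives of the MiT family. In the stria, melanocyte-like intermediate cells make melanosomes, which are relatives of the lysosome. Osteoclasts carry the same pump on their plasma membrane to dissolve bone mineral.

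A promoter element that was not used to choose the members occurs in some of them. It was already known from promoters of lysosomal genes, so the word and the list are not independent. MiT factors bind TCACGTGA, an 8-base word that holds the general E-box CACGTG. In the longer motif of lysosomal genes it has G before it and C after it. All 3 words read the same on both strands. They were searched in RefSeq promoters (GRCm38.p6), each from 250 bases before to 50 bases after a gene start. Entries were found for 34 members with 41 promoters. None was held for Atp6v0a2, Atp6v0d2, Atp6v1b2, Atp6v1c1, Atp6v1g1, Atp6v1h, Ctsb, Ctsh or Npc1. TCACGTGA occurred in 8 of the 41 member promoters (19.5%), against 320 of all 32851 promoters (0.974%). Promoters of other pathway genes, listed below, held it in 6 of 76 (7.89%). CACGTG, which counts these again, was in 12 member promoters (29.3%), 16 of the 76 (21.1%) and 7.15% of all, and the word with G before and C after it was in 1 (2.44% against 0.326%). No test of these shares was run. The stretches around each TCACGTGA are printed to show the word in the 8 members that hold it. Each runs 5′ to 3′ on the gene's strand with 10 bases on either side, and the capitals mark the word.
Atp6v0d1, chr8:105566051-105566078, minus strand: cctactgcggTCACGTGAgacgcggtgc
Atp6v0e, chr17:26676388-26676415, plus strand: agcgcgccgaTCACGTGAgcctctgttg
Atp6v1a, chr16:44139374-44139401, minus strand: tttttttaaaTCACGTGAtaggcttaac
Cln3, chr7:126583341-126583368, minus strand: acgggtactgTCACGTGAcccccaacct
Ctsa, chr2:164833750-164833777, plus strand: gagcaaactgTCACGTGAtgcagatgct
Ctsa, chr2:164833767-164833794, plus strand: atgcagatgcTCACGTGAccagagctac
Ctsd, chr7:142387909-142387936, minus strand: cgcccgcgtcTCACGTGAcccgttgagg
Gla, chrX:134601183-134601210, minus strand: gagatctcggTCACGTGAgcaactctcg
Gla, chrX:134601216-134601243, minus strand: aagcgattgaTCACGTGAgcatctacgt
Mcoln1, chr8:3500463-3500490, plus strand: ggcgccccgcTCACGTGAccgcggcgca

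Ctsa and Gla held the word 2 times each. In Cln3 it has the flanking G and C of the longer motif. A match describes letters in this window and is not a measured binding site.

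No member differed between the genotypes past the threshold. The test was limma on log2(signal + 16) over 27022 probe sets, and calls were made at a Benjamini-Hochberg adjusted p of 0.05. It called 0 of the 89 member probe sets, where 0.00370% of all probe sets were called. With the brightest tested probe set for each gene, 0 of 40 members were called, against 0.00805% of the 12428 genes tested. At an unadjusted p under 0.05 there were also 0 of 40, against 6.35% of genes (3.20% lower and 3.15% higher in knockout samples). The lowest limma adjusted p among the 40 was 0.438. Among all 89 probe sets 5 had an unadjusted p under 0.05, against 11.6% of all probe sets, and none of these was the brightest of its gene. At that p 3 of the 89 were higher in knockout samples, against 9.14% of all probe sets. Counted among those under that p, 3 of the 5 were higher, against 2471 of 3138 over all probe sets. An exact permutation test of 3 against 3 arrays cannot go below p = 0.1. Differences below are knockout minus heterozygote on the log2(signal + 16) scale.

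The intervals show how large a difference these arrays leave room for. For 30 of the 40 members the 95% confidence interval of the limma fit lay wholly within 1.5-fold either way (0.58 on the log2 scale), with no adjustment over members. These were 13 of 16 pump subunits and 17 of 24 lysosomal proteins. The 10 others reached past it, all of them with a lower bound beyond -0.58 except Atp6v0a4, whose upper bound was 0.59. The members are bright genes: their median lay at the 86.8th percentile of mean log2 signal among genes tested. In bulk tissue, fewer cells of a type and less RNA per cell cannot be told apart.

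**Figure D1:**
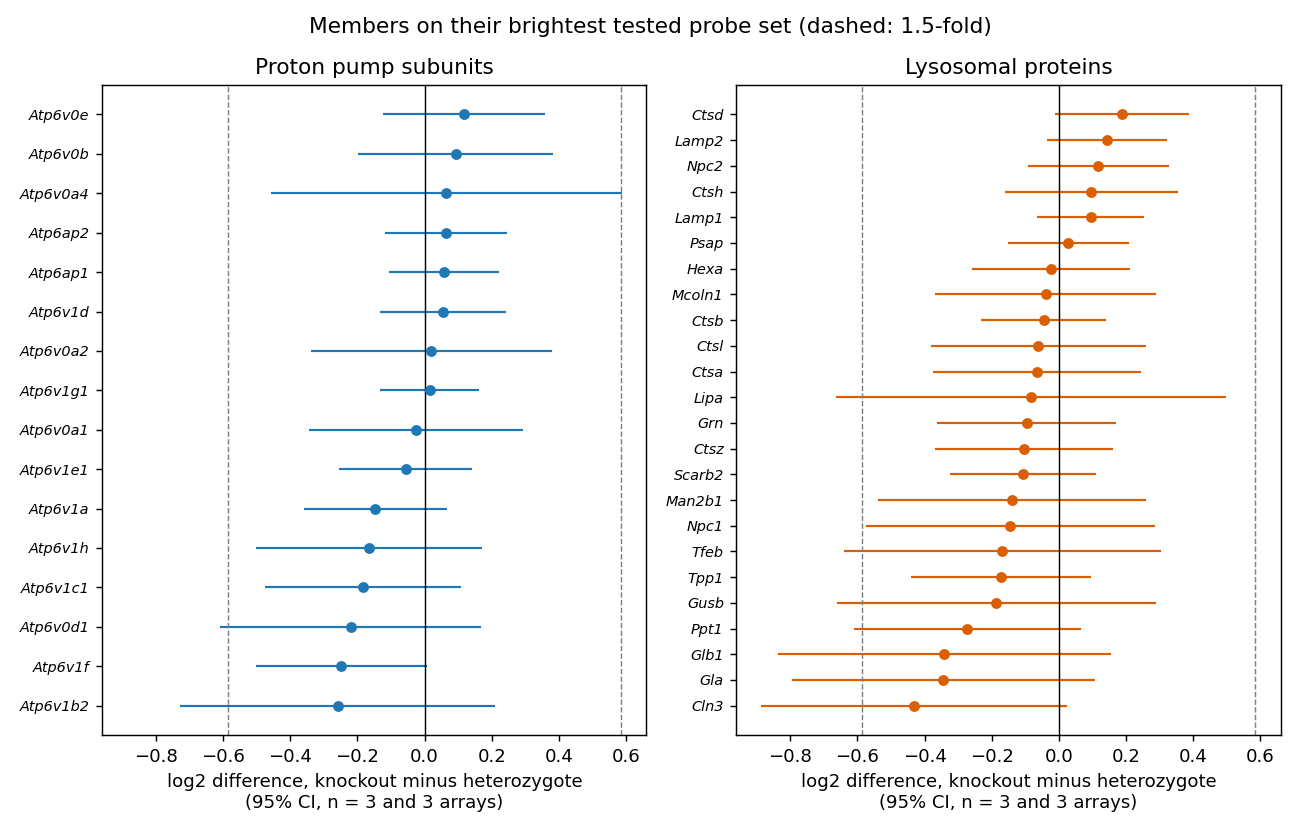
Log2 difference (knockout minus heterozygote, log2(signal + 16) scale) of each of the 40 tested members on its brightest probe set, with the 95% confidence interval of the limma fit (n = 3 and 3 arrays); pump subunits are on the left and lysosomal proteins on the right, and dashed lines mark 1.5-fold. Points run from -0.26 to 0.12 in the pump and from -0.43 to 0.19 among lysosomal proteins, and 30 intervals stay between the dashed lines.

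Of 16 pump subunits tested, 8 had a lower and 8 a higher mean in knockout samples, with a median log2 difference of -0.01, beside -0.04 over all 12428 genes, of which 56.8% were lower. The split depended on the scaling and on 1 array: 12 were lower with quantile normalisation, 16 with median centring, which moved the median of all genes to -0.24, and 10 without knockout replicate 4. It also varied with the probe set. Of the higher subunits with several, Atp6ap2 gave -0.03 and -0.18 on dimmer ones, the latter without overlap. Atp6v1d gave -0.10 on both, Atp6v0b -0.01 and -0.08, Atp6v1g1 -0.06 and 0.12, and Atp6v0a2 0.21 and 0.27. Among the lower subunits, Atp6v0a1 and Atp6v1b2 each had a dim probe set above zero. In the V0 sector 2 of 6 were lower (median 0.04), in the V1 sector 6 of 8 (median -0.16), and the accessory proteins Atp6ap1 and Atp6ap2, which help assemble and sort the pump, stood at 0.06 and 0.07. Without knockout replicate 4 the V0 median was 0.10, with 2 lower, and the V1 median -0.05, with 8 of 8 lower. Groups without overlap were found for 2 of the 16 pump subunits, Atp6v1f and Atp6v1a, and for 6 of the 24 lysosomal proteins, against 13.1% of all genes tested. Taken by direction, 5 of the 40 lay lower, against 7.03% of genes, and 3 lay higher, against 6.05%. The proteolipid Atp6v0b and the small membrane subunit Atp6v0e stood at 0.09 and 0.12 (SE 0.13 and 0.11).

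Atp6v1f, a small subunit of the V1 sector's central rotor, had the smallest p of the pump. Its signal was 3051, 3230 and 3541 in heterozygous replicates 1, 3 and 5 and 3028, 2512 and 2731 in knockout replicates 2, 4 and 6. Every knockout sample lay below every heterozygous one, by a small margin for replicate 2. Its mean was 3274 ± 248 against 2757 ± 259 (SD of 3 arrays per genotype), a log2 difference of -0.25 (SE 0.11, limma adjusted p = 0.438).

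Atp6v1a, the catalytic subunit that splits ATP, gave 3614, 3870 and 3913 in heterozygous samples and 3222, 3498 and 3577 in knockout samples. The knockout values were again all lower, and the gap between the groups was small. The log2 difference was -0.15 (SE 0.10, limma adjusted p = 0.593). A dimmer probe set of Atp6v1a stood at -0.22, also without overlap. The remaining V1 subunits lay between -0.26 and 0.05. Among them, Atp6v1d of the rotor stood at 0.05, the stalk subunit Atp6v1e1 at -0.06 and the regulatory subunit Atp6v1h at -0.16 (SE 0.08, 0.09 and 0.15). Atp6v1g1, another stalk subunit, was nearest to zero of the V1 sector at 0.01 (SE 0.07), with means of 8661 ± 160 for heterozygous and 8752 ± 179 for knockout arrays (SD, 3 arrays each).

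Atp6v1c1, which couples V1 to V0, gave 3414, 2749 and 3207 in heterozygous samples and 3173, 2573 and 2511 in knockout samples. The groups overlapped. Their log2 difference was -0.18 (SE 0.13, limma adjusted p = 0.628).

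Several subunits come as isoforms that place the pump in different cells, and these were compared one by one. The a subunit forms the proton channel and steers the pump to its membrane. Atp6v0a1 gave 891, 914 and 926 in heterozygous and 893, 960 and 833 in knockout samples, a log2 difference of -0.03 (SE 0.14, limma adjusted p = 0.961). Atp6v0a2, the isoform of Golgi and endosomes, gave 1421, 1336 and 1472 against 1548, 1142 and 1649, a difference of 0.02 (SE 0.16, limma adjusted p = 0.973). On these brightest probe sets both genes overlapped between the genotypes. A dimmer probe set of Atp6v0a2 gave 373, 335 and 378 against 420, 397 and 506, higher in every knockout sample (log2 difference 0.27, SE 0.19, limma adjusted p = 0.618), and another stood at 0.21 with overlap.

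Atp6v0a4 and Atp6v1b1 are the isoforms of acid-secreting epithelia, and loss of either causes renal tubular acidosis with deafness in people. Atp6v0a4 gave 279, 267 and 214 in heterozygous and 290, 201 and 315 in knockout samples, a log2 difference of 0.07 (SE 0.23, limma adjusted p = 0.937). Atp6v1b1 lay under the filter on every array, at 25.3, 9.70 and 2.22 in heterozygous and 4.52, 10.1 and 7.87 in knockout samples, and these values overlapped. Other markers of such cells were dim as well: Foxi1, Slc4a9, Rhcg and Insrr, 4 of the list of 7, did not pass the filter. The 3 that passed were Slc26a4 itself, Slc4a1 and Car2, and the summed signal of the 3, most of it Car2, ranged from 6338 to 7882 in heterozygous and from 6342 to 6857 in knockout samples. Slc4a1 gave 96.0, 80.2 and 166 against 60.4, 60.3 and 94.4, which overlapped (log2 difference -0.54, SE 0.30).

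Atp6v1b2, the ubiquitous counterpart of Atp6v1b1, gave 1059, 763 and 932 in heterozygous and 888, 570 and 857 in knockout samples. Knockout replicate 4 was the lowest, and the other knockout samples lay within the heterozygous range. It had a log2 difference of -0.26 (SE 0.21, limma adjusted p = 0.672), and -0.06 without knockout replicate 4.

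Atp6v0d1, the ubiquitous d subunit at the joint of both sectors, gave 3513, 2793 and 3154 in heterozygous and 3404, 2072 and 2767 in knockout samples. The groups overlapped, and replicate 4 was again lowest. This gave a log2 difference of -0.22 (SE 0.17, limma adjusted p = 0.666), and -0.03 without knockout replicate 4.

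Atp6v0d2, the d isoform of osteoclasts and some macrophages, was dim on both of its probe sets. On its brighter probe set the signal was 5.81, 9.44 and 1.80 in heterozygous and 24.1, 36.2 and 98.5 in knockout samples. Every knockout sample lay above every heterozygous one, and knockout replicate 6 was the highest. With its mean under the filter (a signal of about 43.9) the gene was not in the test above. In a fit with no filter the log2 difference was 1.53 (SE 0.37), with a limma adjusted p of 0.497, and p was 0.1 by the exact permutation test (two-sided). Among probe sets under the filter 9.36% were higher in knockout samples without overlap. The difference changed with the offset, to 2.96 with an offset of 1 and 0.70 with 64. Its other probe set overlapped, with 4.84, 1.79 and 8.54 against 0.773, 1.12 and 31.5.

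Values of osteoclast genes are given beside it, since those that separated the genotypes were already known from these arrays. Mmp9, a matrix protease of osteoclasts, gave 18.4, 20.4 and 59.9 in heterozygous and 89.9, 147 and 511 in knockout samples. Acp5, the osteoclast acid phosphatase, gave 71.0, 40.1 and 51.0 against 102, 96.2 and 411. Both were highest in knockout replicate 6, as was Atp6v0d2. Ctsk, the bone collagen protease of the lysosome, gave 391, 290 and 316 against 685, 406 and 752. None of the 3 passed (limma adjusted p = 0.370 for each).

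Other markers on the osteoclast list differed in level and in overlap. Dcstamp, Ocstamp, Oscar and Calcr all lay under the filter, and in Dcstamp (7.69, 4.33 and 12.6 against 18.2, 14.6 and 35.7), Ocstamp and Oscar each knockout sample lay above each heterozygous one. Nfatc1 and Itgb3, a transcription factor and an integrin of osteoclasts, were well above the filter and overlapped, with differences of -0.05 and 0.09 (SE 0.22 each). Of the 11 osteoclast markers 7 were tested and 6 of these had a higher knockout mean. Their summed signal ranged from 7914 to 8670 in heterozygous and from 8684 to 9434 in knockout samples, most of it from Car2 (6010 to 6710), which many strial cells also express. Tcirg1, the a3 isoform of the osteoclast pump, overlapped, with 985, 944 and 968 against 1117, 1389 and 793 (log2 difference 0.15, SE 0.20). On this list Mmp9, Acp5, Ctsk, Nfatc1, Dcstamp and Calcr were highest in knockout replicate 6. Tcirg1, Itgb3 and Oscar were highest in knockout replicate 4, Ocstamp in knockout replicate 2 and Car2 in heterozygous replicate 5. For macrophages 13 of 14 markers were tested and 10 had a higher knockout mean (median 0.10), while without knockout replicate 4 none of the 13 was lower (median 0.32). Cd163, which lay under the filter, went the other way without overlap, at 13.7, 21.4 and 94.3 against 7.45, 8.83 and 11.3. The summed signal of the 13 overlapped, from 9599 to 12889 in heterozygous and from 9886 to 14269 in knockout samples. Of 7 markers of osteoblasts and osteocytes, the cells that build bone, 5 were tested and 4 of these had a higher knockout mean. Their summed signal did not overlap either, from 2758 to 5155 in heterozygous and from 5239 to 8856 in knockout samples. The part of any of these cell types in the Atp6v0d2 values was not tested.

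**Figure D2:**
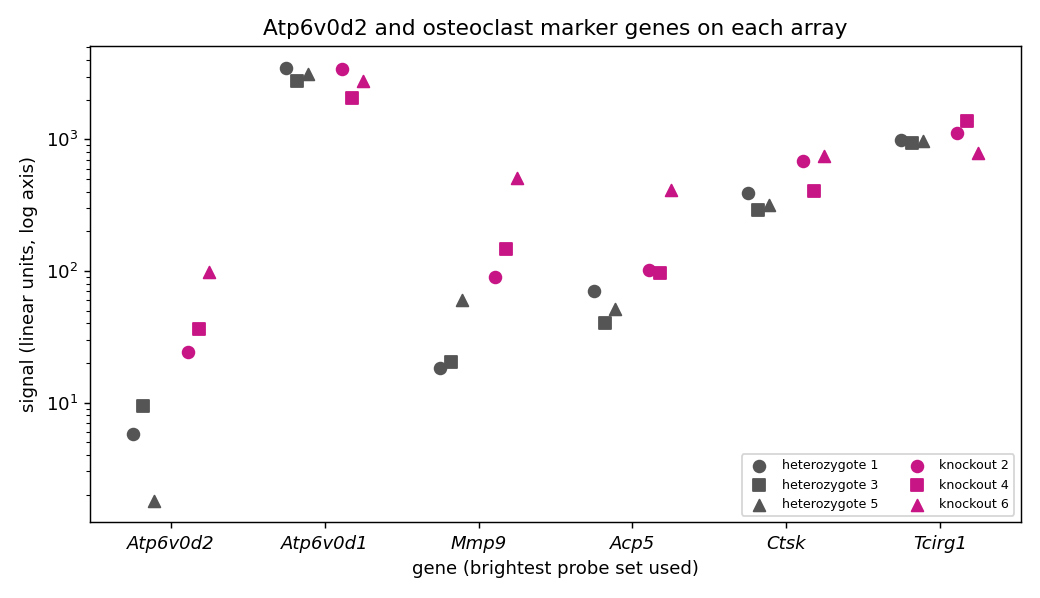
Signal on each array (linear units on a log axis) for Atp6v0d2, its ubiquitous counterpart Atp6v0d1 and the osteoclast genes Mmp9, Acp5, Ctsk and Tcirg1; grey points are heterozygous and magenta points knockout samples, with a symbol for each replicate. For Atp6v0d2 the knockout samples sit between 24.1 and 98.5, above the heterozygous range of 1.80 to 9.44, as they do for Mmp9, Acp5 and Ctsk but not for Atp6v0d1 or Tcirg1.

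Lysosomal proteins lay slightly below zero as a list. Of 24 tested, 18 had a lower and 6 a higher mean in knockout samples, with a median log2 difference of -0.09. Without knockout replicate 4 there were 12 lower and 12 higher, with a median of -0.003. With median centring all 24 were lower, but it moved the median of all genes to -0.24. Relative to all genes the list then stood at -0.051, as it did in the main fit. Over all arrays 56.8% of all genes tested were lower. No member of the list had an unadjusted p under 0.05.

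The 6 cathepsins, proteases that act in acid, ranged from -0.10 to 0.19, with 4 lower and 2 higher (median -0.05). Without knockout replicate 4 there were 2 lower and the median was 0.06. Ctsd, the main aspartic protease of the lysosome, gave 6666, 5811 and 6637 in heterozygous and 7375, 7674 and 6728 in knockout samples. The knockout values were all higher, replicate 6 only just. The difference was 0.19 on the log2 scale (SE 0.09, limma adjusted p = 0.449). The cysteine proteases Ctsb and Ctsl stood at -0.05 and -0.06 (SE 0.08 and 0.14), and Ctsh and Ctsz, of the same class, at 0.10 and -0.10. Ctsa, which also protects glycosidases, was at -0.07. A dimmer probe set of Ctsb gave -0.30 without overlap, and its other tested ones -0.16 and -0.18 with overlap.

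All 8 other hydrolases had a lower knockout mean, from -0.34 to -0.02, with a median of -0.18. Without knockout replicate 4 this held for 6 of 8, with a median of -0.05. Gla, the alpha-galactosidase missing in Fabry disease, gave 222, 249 and 258 in heterozygous and 206, 171 and 188 in knockout samples. Its knockout values were all lower, at a dim signal. Their log2 difference was -0.34 (SE 0.20, limma adjusted p = 0.546).

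Glb1, the beta-galactosidase, gave 549, 560 and 532 in heterozygous and 513, 305 and 500 in knockout samples, also without overlap, and replicate 4 was far below the rest. Its log2 difference of -0.34 (SE 0.22) was -0.11 without that array. Ppt1, a thioesterase that removes fatty acids from proteins, gave 3370, 3061 and 3458 against 3177, 2132 and 2980, a difference of -0.27 (SE 0.15, limma adjusted p = 0.519), and -0.10 without it. Tpp1, a peptidase, stood at -0.17, Gusb at -0.19, Man2b1 at -0.14, the acid lipase Lipa at -0.08 and Hexa, the alpha chain of hexosaminidase, at -0.02. Dimmer probe sets of Lipa gave -0.07 and -0.43 (SE 0.34 and 0.31), both with overlap. Without knockout replicate 4 the latter stood at -0.06.

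Soluble helpers of the lysosome differed little on their brightest probe sets. Psap, the precursor of the saposins that present lipids to hydrolases, stood at 0.03 (SE 0.08), Npc2, which hands on cholesterol, at 0.12 (SE 0.09), and the progranulin gene Grn at -0.09 (SE 0.12). The groups overlapped in all 3 on these probe sets. Dimmer tested ones gave -0.03 and -0.41 for Npc2, the latter without overlap. They gave -0.14 for Psap and -0.05 and -0.04 for Grn, with overlap.

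Membrane proteins went both ways. The coat proteins Lamp1 and Lamp2 were higher without overlap, by 0.10 and 0.14 (SE 0.07 and 0.08). Lamp2 gave 6707, 6656 and 6528 in heterozygous and 7023, 7975 and 7030 in knockout samples, with a limma adjusted p of 0.518. Its probe sets disagreed: the dimmest gave 2820, 2632 and 2715 against 2463, 2104 and 2619, lower without overlap.

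Cln3, a membrane protein whose loss causes juvenile Batten disease, had the lowest difference of all members on their brightest probe sets. It gave 497, 432 and 493 in heterozygous and 397, 273 and 383 in knockout samples. Every knockout sample was lower, and replicate 4 the lowest. It had a log2 difference of -0.43 (SE 0.20, limma adjusted p = 0.449), and -0.27 without knockout replicate 4, while the dimmer probe set gave -0.05. Npc1, the cholesterol exporter, stood at -0.14, Scarb2, which carries glucocerebrosidase to the lysosome, at -0.11, and Mcoln1, the calcium channel of lysosomes, at -0.04 (SE 0.10 to 0.19).

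The transcription factor Tfeb gave 239, 228 and 211 in heterozygous and 223, 166 and 213 in knockout samples. The groups overlapped. The difference was -0.17 on the log2 scale (SE 0.21, limma adjusted p = 0.800), and -0.05 without knockout replicate 4. Its relatives Mitf, the master regulator of melanocytes, and Tfe3 stood at -0.09 and -0.11 (SE 0.11 and 0.13), and Tfec lay under the filter. The 8 members whose promoters hold the word TCACGTGA printed above had a median log2 difference of -0.11 with 6 lower, and 24 tested members whose promoters lack it had -0.06 with 15 lower. They spanned both ends of the range, from Cln3 at -0.43 to Ctsd at 0.19.

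Knockout replicate 4 was unlike the other 5 arrays: its mean correlation with the rest over tested probe sets was 0.931, against 0.966 to 0.971 for the others. The summed signal of 7 endothelial markers was 2101 in this array and between 4079 and 7178 in the others. Among the 40 members it was the lowest array for 22 and the highest for 10. In this array the deviation from the heterozygous mean followed brightness. The 20 dimmer members (mean signal 213 to 3030) lay below the heterozygous mean in 19 of 20 cases, with a median of -0.45, and the 20 brighter ones had a median of 0.01. Of the 7888 genes tested in the signal range of the dimmer members, 64.9% lay below it in this array, with a median of -0.15. In knockout replicates 2 and 6 the medians of the dimmer members were 0.04 and -0.12. Across the 40 members, which share these arrays, the correlation of deviation with mean log2 signal was 0.71 in replicate 4 and between -0.18 and 0.22 in the other arrays. This is a description across genes, which are not independent replicates.

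The same split ran through the genotype difference. Of the 20 dimmer members 17 were lower (median -0.17), beside 62.3% of the 7888 genes in that range of signal. Of the 20 brighter ones 11 were higher (median 0.02), beside 56.3% of 1650 genes at least as bright. Without knockout replicate 4 the medians were -0.03 and 0.005. The part of this array in the lower values of Cln3, Glb1 and Ppt1 was not tested beyond the values without it given above.

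**Figure D3:**
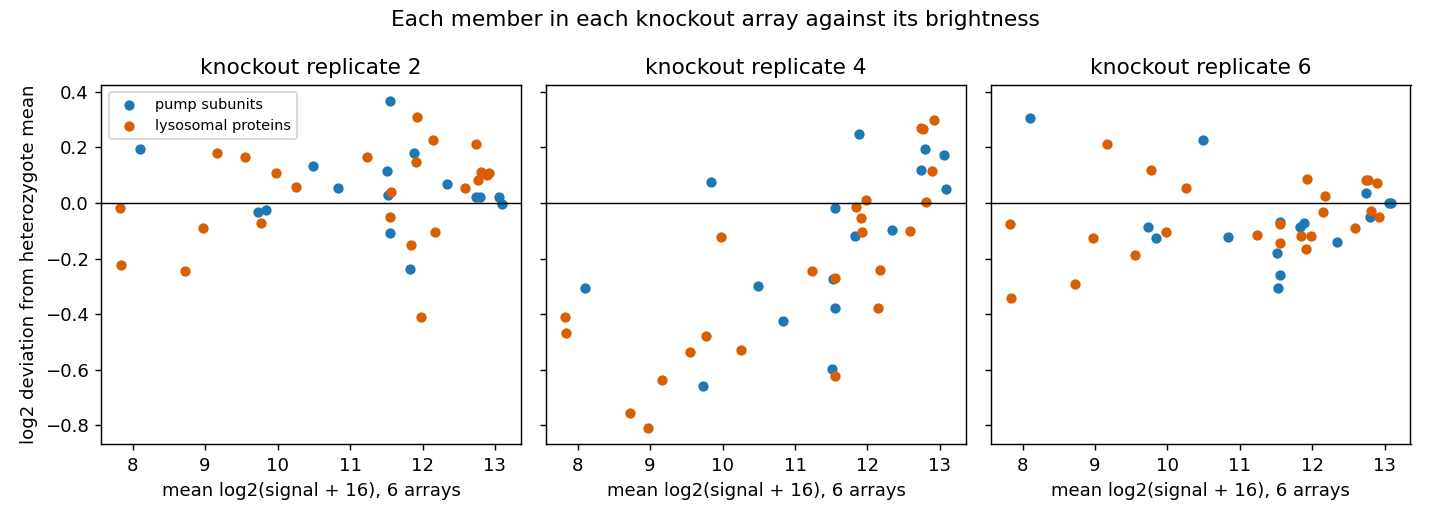
Deviation of each tested member from its heterozygous mean (log2 scale) in each knockout array, against its mean log2(signal + 16) over 6 arrays; blue points are pump subunits and orange points lysosomal proteins. In replicate 4 dim members lie below zero and bright ones on both sides of it (correlation 0.71 over 40 genes), while the correlation is 0.17 in replicate 2 and 0.08 in replicate 6.

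Probe sets of a gene did not always give the same sign. Of 26 members with several tested probe sets, 12 had values on both sides of zero (46.2%), beside 45.5% of all 5978 such genes, and none passed 0.3 in both directions. Secondary probe sets with a mean signal under 300, a limit chosen after the values were seen, had a median log2 difference of 0.24 against 0.05 over 5621 such probe sets of all genes. Of the 14, 8 were higher, a share close to the 55.9% of all such probe sets. Knockout replicate 4 was the highest array in 7 of these 14, against 34.5% of all such probe sets. Without it their median was 0.15. The 35 other secondary probe sets, at a signal of 300 or more, went the other way, with 30 lower and 5 higher (median -0.12). Without knockout replicate 4 that median was -0.02. Of all 49 secondary probe sets 36 were lower and 13 higher (median -0.10), beside a median of -0.01 over 10458 such probe sets of all genes.

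Among the dim secondary probe sets the largest difference was that of the dimmest one of Mcoln1. It gave 33.9, 29.6 and 34.8 in heterozygous and 72.0, 109 and 65.0 in knockout samples. The groups did not overlap, and the log2 difference of 0.98 (SE 0.26) had a limma adjusted p of 0.370. It was 0.79 without knockout replicate 4, while the 2 brighter probe sets of this channel gave -0.04 and -0.22. A dim probe set of Ppt1 gave 194, 138 and 117 against 265, 569 and 164, a difference of 0.93 (SE 0.39) that was 0.47 without replicate 4. Atp6v1b2 had a dim one at 0.81 (SE 0.42), where replicate 4 stood at 257 and the other knockout samples at 76.1 and 89.7, and it was 0.32 without that array. A dim probe set of Atp6v0a1 gave 43.4, 39.5 and 21.9 against 56.9, 94.2 and 52.3, a difference of 0.71 (SE 0.30). These 4 genes' dim probe sets were picked out after their values were seen, and in each gene the brightest probe set lay below zero. Lower with an unadjusted p under 0.05 were a probe set of Npc2, at -0.41 (limma adjusted p = 0.390), and one of Atp6v1e1, at -0.39 (limma adjusted p = 0.420), both without overlap, while the brightest probe sets of these genes stood at 0.12 and -0.06. The position of a probe set on its transcript is not used here.

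**Figure D4:**
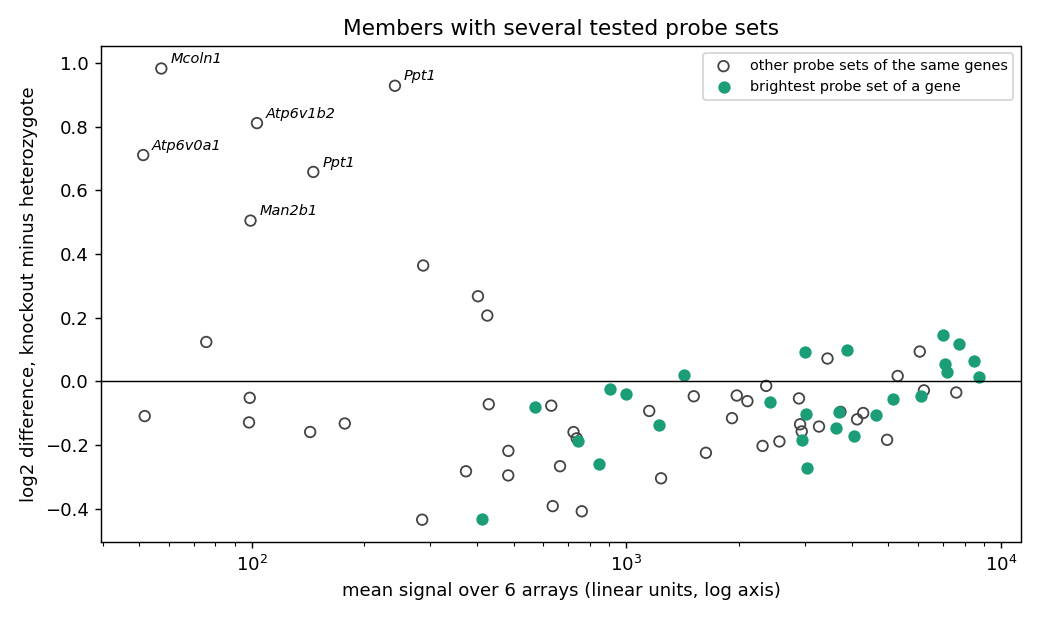
Log2 difference (knockout minus heterozygote) of each tested probe set against its mean signal over 6 arrays (linear units on a log axis), for the 26 members with several tested probe sets; filled points are the brightest probe set of a gene and open points its others. The points above 0.5 are all dim open ones, of Mcoln1, Ppt1, Atp6v1b2, Atp6v0a1 and Man2b1.

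The list of other pathway genes held 78, and of 68 tested, 39 were lower and 29 higher, with a median of -0.03, and 0 were called by limma. There were 3 with an unadjusted p under 0.05, all higher, where 3.15% of all genes were higher at that p: Ctsk (0.82, SE 0.25), Acp5 (1.37, SE 0.47) and Cd68, a macrophage membrane glycoprotein of the lysosome (0.48, SE 0.21). Their limma adjusted p was 0.370, 0.370 and 0.423.

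Among 12 further pump subunits and partners the median was -0.05, with Ncoa7 and Ccdc115, a binding partner and an assembly factor of the pump, at -0.37 and -0.40 (SE 0.22 and 0.25, limma adjusted p = 0.556 and 0.567). Without knockout replicate 4, the lowest array for both, they stood at -0.15 and -0.16. Among 29 further hydrolases the median was -0.06, and 0.02 without that array. Among 25 further membrane and sorting proteins it was 0.02, with Cln8, which helps lysosomal enzymes leave the endoplasmic reticulum, at -0.24 (SE 0.14).

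Markers of strial cells varied in level. Of 12 intermediate cell and melanocyte markers, Tyrp1 and Oca2 lay under the filter. Of the 10 tested 9 had a lower knockout mean (median -0.20), and 6 without knockout replicate 4 (median -0.10). The melanocyte channel gene Trpm1 was at -1.25 (SE 0.20, limma adjusted p = 0.157), without overlap. The summed signal ranged from 34806 to 39854 in heterozygous and from 32936 to 37110 in knockout samples, and that of 7 marginal cell markers from 40494 to 42757 and from 40515 to 47440. Slc26a4 itself, the targeted gene, gave 221, 248 and 1006 in heterozygous and 75.5, 106 and 154 in knockout samples on the probe set used, and whether it lies in the deleted part of the gene is not given in the sources used here. Every array labelled knockout lay below every array labelled heterozygous. Heterozygous replicate 5, the highest for Slc26a4, also stood out in several marker lists. For 5 markers of root, spindle and outer sulcus cells, Slc26a4 among them, it reached 19426, against 9474 to 13029 in the other arrays. For 6 fibrocyte markers it reached 29958, against 18018 to 26449. For the 3 tested markers of acid-secreting epithelia, Slc26a4 among them, it reached 7882, against 6338 to 6857. Alas2, the only erythrocyte marker tested, stood at 148 in this array, against 13.6 to 70.8.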

How the data were processed

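The authors deposited one linear intensity per probe set and array (Affymetrix Mouse 430 2.0), made with GCOS, per the submitters' processing notes. In these values the mean, trimmed by 2% at each end, was 500.0 on every array, so a change shared by most genes would not show. Genotype and replicate number came from the sample titles. The 64 control probe sets were left out, the signal was taken as log2(signal + 16), and a filter took out probe sets whose mean log2 value was below 5.90, the 40th percentile (about 43.9 in signal). The others went into limma 3.58.1 (R 4.3.3) with lmFit and eBayes, using a variance trend, two-sided tests and Benjamini-Hochberg adjustment. The fit was tested on simulated data.

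Probe sets were named from the platform annotation: 34945 had 1 symbol, 932 several and 9160 none. The brightest tested probe set by mean log2 stood for a gene. Members and lists were chosen with earlier results of these data known. Described in full were, in the pump and in lysosomal proteins apart, the 4 smallest p-values and 2 largest differences, isoform families and Tfeb, and of each further pathway list the 2 smallest p-values. Others were named after their values were seen. Set tests were not run. Alternatives were other offsets, a floor, normalisations, filters, variance models, array weights, other probe set choices and leaving out each array. Figures used matplotlib 3.10.9.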

Additional observations from a re-analysis of the deposited data

How the results depend on the processing

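No member was called in any of 18 alternatives, with a lowest limma adjusted p of 0.189 (without knockout replicate 6). The median log2 difference of the pump subunits was -0.040 to -0.014 without single arrays, and that of the lysosomal proteins -0.14 to -0.003. Centring arrays on their median moved all genes to a median of -0.24, the pump to -0.20 and the lysosomal proteins to -0.29, so relative to all genes they stood at 0.032 and -0.051; 11 members then had an unadjusted p under 0.05. Quantile normalisation gave -0.070 for the pump. Signs turned for Ctsd (-0.011), Lamp2 (-0.055), Atp6v0a2 (-0.18) and Atp6v0a4 (-0.13) with median centring, for Atp6v0a4 (-0.034) and Atp6v0a1 (0.0095) with quantile normalisation and for Atp6v0a1 (0.022) with cyclic loess. Averaging each gene's probe sets, they turned for Atp6v1b2 (0.00074), Ppt1 (0.30) and Atp6v0a1 (0.10), and with the most variable probe set for Atp6v1b2 (0.81), Ppt1 (0.93), Atp6v0a1 (0.71) and Lamp2 (-0.19). Without single arrays Atp6v0a1 ranged from -0.076 to 0.025, Atp6v0a2 from -0.082 to 0.18, Atp6v0a4 from -0.056 to 0.25 and Atp6v1b1, with no filter, from -0.48 to 0.11. The causes were not tested beyond the construction of each alternative. The brighter probe set of Atp6v0d2, with no filter, stayed above 0 in all 11 added alternatives. It ran from 0.60 with a floor of 32 to 2.96, with a limma adjusted p from 0.262 to 0.907, and stood at 1.09 without knockout replicate 6. The other probe set of the gene, at 0.20 with no filter, turned to -0.12 with an offset of 1 and to -0.30 without knockout replicate 6. Without knockout replicate 2 it stood at 0.45. The added alternatives were chosen after seeing the data. No paired analysis was possible because the labels state no pairing or litter. The number of arrays and dim signals near the filter limit the precision.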
